A study of Caenorhabditis elegans with 15 samples.

Results

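The genes of the mitochondrial respiratory chain and ATP synthase were followed in whole adult Caenorhabditis elegans lacking an FBF protein, 3 long noncoding RNA genes, or both. Members were taken by gene name: the nduo, ndfl, ctb, ctc, nuo, ucr, cox and atp families with a number, plus sdha-1, sdhb-1, isp-1 and cyc-1. This rule gave 47 genes of the 46904 in the deposited tables, of which 12 lie on the mitochondrial chromosome and 35 in the nucleus. All 47 passed the filter on low counts in every comparison, so no member dropped out for low counts. The rule reads names, not values, and misses chain genes with other names, which were kept as separate lists.

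The respiratory chain passes electrons from NADH and succinate to oxygen through complexes I to IV in the inner mitochondrial membrane, and complex V, the ATP synthase, uses the resulting proton gradient to make ATP. Mitochondrial DNA is transcribed as long precursors that are cleaved into separate mRNAs, while most subunits and all assembly factors are encoded in the nucleus and imported, so each complex except II draws on both genomes. In worms the germline holds a large share of the mitochondria and of the mitochondrial DNA of an adult.

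The study compared adults of 5 genotypes, with 3 libraries each: fbf-2 mutants, the 3xlnc mutant (linc-4; linc-29; linc-7) and wild type N2 (WT), and, separately, fbf-1 3xlnc (fbf-1 with the same 3 linc genes mutated) and fbf-1. FBF-1 and FBF-2 are PUF-family proteins that bind mRNAs in the germline, so both groups of the last comparison carry the fbf-1 mutation. The labels name total RNA for fbf-2, 3xlnc and WT and polyA RNA for fbf-1 3xlnc and fbf-1, although all protocols name the same mRNA library kit. No test was therefore made across those 2 sets, where genotype and molecule label cannot be told apart, and levels are given side by side. Alleles, ages in days and whether libraries came from separate cultures are not stated, so the p-values rest on the variation from library to library, whether technical or biological.

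The fbf-2 libraries held 18359546 to 23946404 counts, the 3xlnc libraries 17321508 to 25666906, the WT libraries 9068700 to 20659808, the fbf-1 3xlnc libraries 28476560 to 30152040 and the fbf-1 libraries 21731471 to 38453738. The mutated genes followed the labels: the 3 linc genes had 0 counts in all 3xlnc and fbf-1 3xlnc libraries, and fbf-2 stood at 6.10 to 7.30 CPM (counts scaled to each library's total) in fbf-2 mutants, against 26.02 to 32.1 CPM in WT. WT replicate 1 had the fewest counts, and nuclear ribosomal RNA took 4.62% of them, against 0.514% and 0.972% in WT replicates 2 and 3. That share was uneven in other groups too. It was 0.256%, 0.157% and 2.80% in fbf-2 replicates 1, 2 and 3, and 2.51%, 0.390% and 0.369% in those of 3xlnc. In a whole worm, fewer cells of a type and less RNA per cell cannot be told apart. Without strand settings in the sources used here, overlapping genes may share counts; 18 members share positions with another protein-coding gene, among them the mitochondrial neighbours nduo-1 and atp-6, nduo-3 and nduo-5, and nduo-6 and ndfl-4.

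The mitochondrially encoded mRNAs were the more variable class. Their summed level was 10817, 10897 and 8725 CPM in the fbf-2 libraries, 6678, 11277 and 12003 CPM in 3xlnc and 10128, 7429 and 10406 CPM in WT. It was 9746, 9368 and 9906 CPM in fbf-1 3xlnc and 10089, 10050.4 and 6602 CPM in fbf-1. In each of 3xlnc, WT and fbf-1 a single library (replicate 1, 2 and 3 in that order of groups) lay well below the others, and the groups of each comparison overlapped. The summed level of the 35 nuclear members was steadier, at 10134 to 10710 CPM in the fbf-2 libraries, 12049 to 13095 CPM in 3xlnc, 10311 to 10785 CPM in WT, 9569 to 10292 CPM in fbf-1 3xlnc and 9282 to 9705 CPM in fbf-1, and the 3xlnc libraries stood above all WT and fbf-2 libraries.

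**Figure D1:**
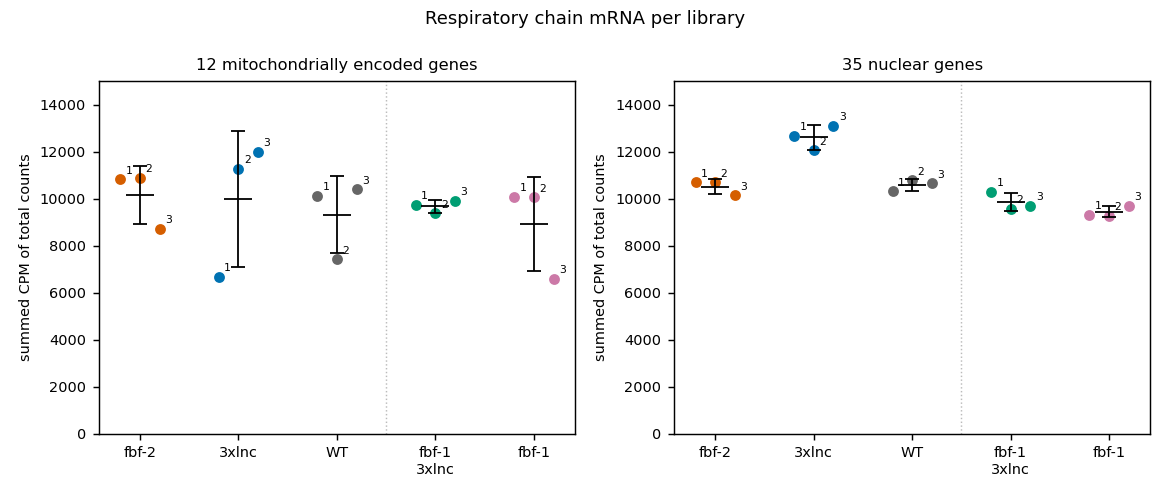
Summed level in CPM of total counts of the 12 mitochondrially encoded genes (left) and 35 nuclear genes (right) in each library, with replicate numbers beside the points, and mean and SD as bars; the dotted line parts the 2 molecule labels. The low mitochondrial sums are 6678 CPM in 3xlnc, 7429 CPM in WT and 6602 CPM in fbf-1, while nuclear sums stay between 9282 and 13095 CPM.

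The ratio of mitochondrially encoded to nuclear counts, which needs no scaling between libraries, was 0.689 in WT replicate 2, 0.527 in 3xlnc replicate 1 and 0.680 in fbf-1 replicate 3, and 0.861 to 1.08 in the other 12 libraries. The median coefficient of variation between libraries of a group was 26.95% for mitochondrially encoded members in 3xlnc, 30.1% in WT and 25.3% in fbf-1, but 10.6% in fbf-2 and 5.54% in fbf-1 3xlnc. For nuclear members it was 5.81%, 12.8%, 4.05%, 8.58% and 4.198% in the same order of groups, close to that of the 7631 genes with a mean of at least 200 counts (6.07%, 12.298%, 4.34%, 7.69% and 4.30%). Across the 15 libraries, the median correlation of log2 CPM was 0.67 over 66 pairs of mitochondrially encoded members, 0.57 over 595 nuclear pairs and 0.25 over 420 mixed pairs; the libraries share genotypes and molecule labels, so these values describe the data only.

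Levels were set between genes only per kilobase of merged exon. Over all 15 libraries the highest mean level was that of ctc-1, the largest catalytic subunit of cytochrome c oxidase, at 2302 CPM per kb. It was followed by ctc-3 at 1907 CPM per kb and by ctb-1, cytochrome b of complex III, at 1286 CPM per kb. The order was not the same in each genotype. In fbf-2, ctc-3 averaged 2234 ± 367 and ctc-1 2206 ± 236 CPM per kb (SD, n = 3), and ctc-2 at 1578 ± 263 stood above ctb-1 at 1373 ± 145, both pairs within their spread. In 3xlnc, atp-2 at 1539 ± 66.3 and atp-1 at 1352 ± 45.9 CPM per kb (SD, n = 3) stood above ctb-1 at 1292 ± 406, within the spread of ctb-1. Over all libraries the nuclear genes with the highest levels were atp-2 and atp-1, the beta and alpha subunits of the ATP synthase head, at 1268 and 1091 CPM per kb, and atp-5, a subunit of its stalk, at 569 CPM per kb. Mitochondrially encoded members spanned a wide range: ctc-2 stood at 1242, atp-6 (the membrane subunit of the ATP synthase) at 754 and nduo-1 at 608 CPM per kb, but nduo-3 at 63.1 and nduo-2 at 44.7 CPM per kb. The remaining complex I members from mitochondrial DNA were at 373 (nduo-5), 312 (nduo-4), 157 (ndfl-4) and 141 (nduo-6) CPM per kb. The assembly factors of complex IV were the lowest nuclear group together with nuo-3, between 8.03 CPM per kb for cox-10 and 51.5 CPM per kb for cox-16.

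In fbf-1 3xlnc compared with fbf-1, 3 of the 7 complex I mRNAs from mitochondrial DNA and the ATP synthase mRNA atp-6 rose, while none of the 3 cytochrome c oxidase mRNAs passed the test. With edgeR's quasi-likelihood test, 4 of 12 mitochondrially encoded members (33.3%) rose and none fell at a Benjamini-Hochberg adjusted p under 0.05; of all 14104 genes tested in that comparison, 9.43% rose and 8.49% fell. The 4 were nduo-3, nduo-2, nduo-6 and atp-6. All 7 mitochondrially encoded complex I members and atp-6 had non-overlapping groups, higher in fbf-1 3xlnc, as did 17.7% of all genes tested; 21.2% of all genes had non-overlapping groups that were lower. The median log2 change of the 12 was 0.46, against 0.00 over all genes tested. With no filter on low counts 9 of the 12 rose, beside 7.25% of all genes in that fit. The difference between the complex I and cytochrome c oxidase members was not tested.

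The transcript of nduo-3 (MtDNA:11356-11691 in WBcel235), a core membrane subunit of complex I, stood at 20.7, 18.4 and 22.2 CPM in fbf-1 3xlnc, against 12.2, 13.9 and 12.12 CPM in fbf-1. Its 3 fbf-1 3xlnc values lie above all fbf-1 values, a log2 change of 0.70 (SE 0.085, edgeR adjusted p = 0.000848). The level of nduo-2 (MtDNA:3389-4269), another core membrane subunit, was 39.1, 36.5 and 49.6 CPM in fbf-1 3xlnc and 28.0, 23.3 and 28.0 CPM in fbf-1, a log2 change of 0.66 (SE 0.117, edgeR adjusted p = 0.00645). For nduo-6 (MtDNA:113-549) the values were 55.1, 47.2 and 57.0 CPM in fbf-1 3xlnc and 41.97, 34.97 and 31.02 CPM in fbf-1, a log2 change of 0.58 (SE 0.098, edgeR adjusted p = 0.00509). These 3 genes are among the mitochondrially encoded members of lowest level, and their calls held in all 14 alternatives run for this comparison.

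The fourth, atp-6 (MtDNA:2634-3235), had 428, 477 and 549.8 CPM in fbf-1 3xlnc and 414, 355 and 237 CPM in fbf-1, a log2 change of 0.55 (SE 0.166, edgeR adjusted p = 0.0490). That call was lost without fbf-1 replicate 2 or 3, without fbf-1 3xlnc replicate 2 or 3, and with DESeq2, with adjusted p between 0.0769 and 0.118. The other complex I members had log2 changes of 0.71 (ndfl-4, SE 0.219), 0.49 (nduo-5, SE 0.159), 0.44 (nduo-4, SE 0.149) and 0.37 (nduo-1, SE 0.119), with edgeR adjusted p of 0.0541, 0.0629, 0.0714 and 0.0632, and so did not pass. Values for ctc-1 were 3741, 3663 and 3849 CPM in fbf-1 3xlnc and 4347, 4320.2 and 3087 CPM in fbf-1, overlapping ranges with a log2 change of -0.04 (SE 0.103, edgeR adjusted p = 0.789). The changes of ctc-3 (-0.01, SE 0.158), ctc-2 (0.29, SE 0.139) and ctb-1 (0.24, SE 0.149) did not pass either, and their groups overlapped.

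**Figure D2:**
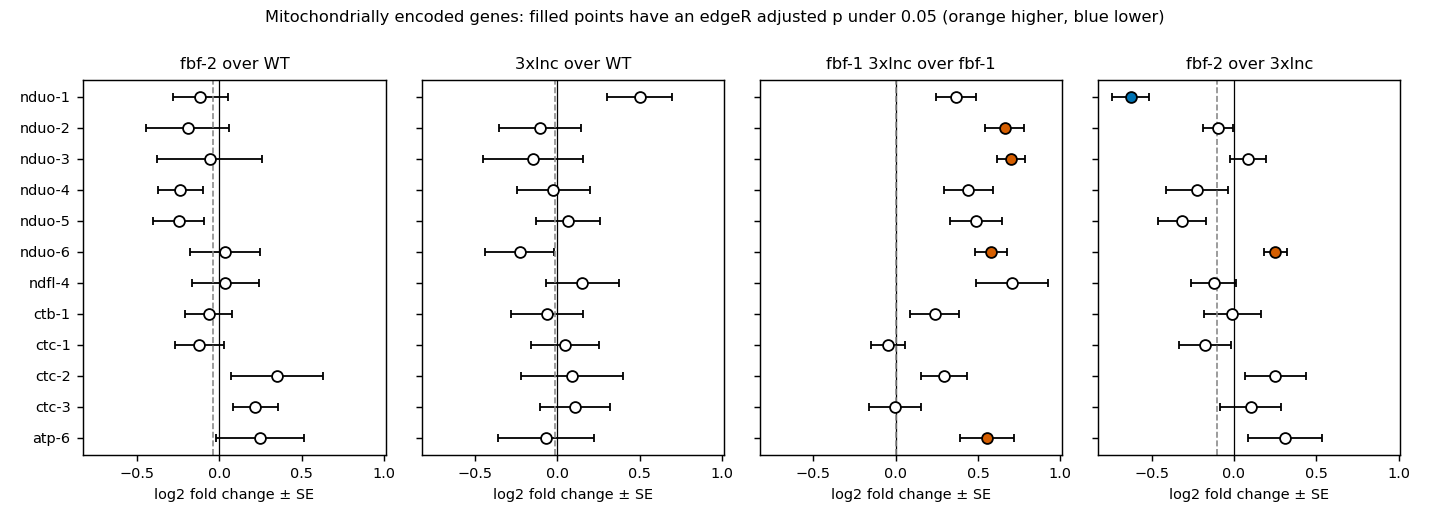
Log2 fold change (x axis, with SE) of the 12 mitochondrially encoded genes in 4 comparisons; filled points have an edgeR adjusted p under 0.05 and the dashed line is the median of all genes tested. In fbf-1 3xlnc over fbf-1 the 7 complex I genes lie between 0.37 and 0.71, whereas in fbf-2 over WT and 3xlnc over WT no point is filled.

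The composition of mitochondrially encoded mRNA differed between these groups. Complex I members made up 18.1%, 17.6% and 17.8% of its counts in fbf-1 3xlnc, against 14.4%, 14.6% and 13.96% in fbf-1, and ctc-1 made up 38.4%, 39.1% and 38.9% in fbf-1 3xlnc, against 43.1%, 43.0% and 46.8% in fbf-1. Neither share overlapped between the groups, and the shares need no scaling between libraries. Among the other genotypes the complex I share was 15.5% to 17.6% for fbf-2, 19.3% to 21.7% for 3xlnc and 17.7% to 19.4% for WT, so that fbf-2 lay below both. The fbf-1 libraries held the lowest complex I shares of the 15, but they differ from WT in molecule label as well as genotype. Without fbf-1 replicate 3, the library with the low mitochondrial sum, all 7 complex I members passed as higher, and 2 members passed as lower, ctc-1 at -0.17 and ctc-3 at -0.21 on the log2 scale, where 5.25% of all genes passed as higher and 4.67% as lower.

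**Figure D3:**
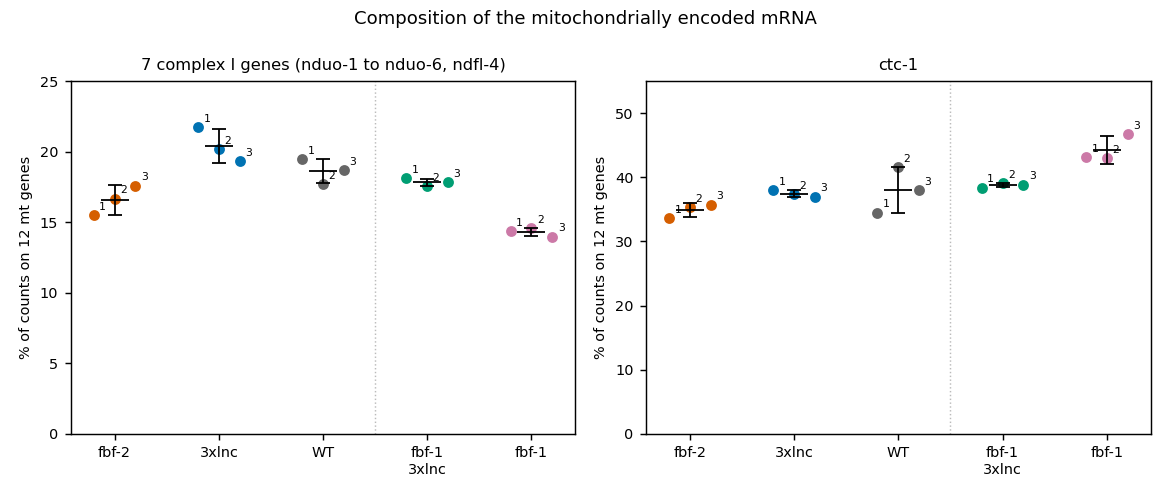
Share of the counts on the 12 mitochondrially encoded genes taken by the 7 complex I genes (left) and by ctc-1 (right), in percent, per library with mean and SD; the dotted line parts the 2 molecule labels. The complex I share is 17.6% to 18.1% in fbf-1 3xlnc and 13.96% to 14.6% in fbf-1, with no overlap.

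Several other measures moved with that comparison. Nuclear ribosomal RNA took 2.01%, 4.12% and 2.09% of counts in fbf-1 3xlnc, against 0.995%, 0.478% and 0.215% in fbf-1; with ribosomal RNA genes left out of the fit, 4 mitochondrially encoded members still passed as higher. Sperm markers summed to 586, 249 and 259 CPM in fbf-1 3xlnc and 184, 155 and 110.3 CPM in fbf-1, with 27 of 28 tested markers higher and none lower. Muscle markers summed to 8049, 6433 and 6466 CPM in fbf-1 3xlnc and 5897, 6091 and 5855 CPM in fbf-1 (3 of 10 higher, none lower). Both sums were highest in fbf-1 3xlnc replicate 1. Germline markers summed to 3134 to 3208 CPM in fbf-1 3xlnc and 3302 to 3366 CPM in fbf-1 (1 of 10 higher, 1 lower). Intestine markers summed to 3984 to 4320 CPM in fbf-1 3xlnc and 3229 to 3491 CPM in fbf-1 (4 of 10 higher, 1 lower). Of hypodermis markers 1 of 10 was higher and 1 lower, of neuron markers 1 of 10 was lower, and no oocyte marker passed. The part of these cell types in the result was not tested.

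Among the 35 nuclear members in fbf-1 3xlnc compared with fbf-1, 1 rose and 1 fell, below the 9.43% and 8.49% of all genes, and their median log2 change was 0.03. The gene that rose was ucr-2.2 (X:15173904-15178145), one of 3 worm genes for a core 2 subunit of complex III, with 94.4, 78.3 and 77.7 CPM in fbf-1 3xlnc and 68.1, 67.7 and 70.1 CPM in fbf-1. The groups did not overlap, and the log2 change was 0.29 (SE 0.072, edgeR adjusted p = 0.0251); it was lost without fbf-1 replicate 1 or 2 (adjusted p = 0.0950 and 0.0866). The gene that fell was cox-15 (II:11232756-11234952), a heme A synthase needed to assemble complex IV, with 57.2, 56.5 and 59.3 CPM in fbf-1 3xlnc and 63.5, 72.8 and 68.8 CPM in fbf-1. Its log2 change was -0.23 (SE 0.052, edgeR adjusted p = 0.0178), lost without fbf-1 replicate 2 or 3 or without fbf-1 3xlnc replicate 2 (adjusted p between 0.0516 and 0.0645). Both genes overlap other protein-coding genes in position, which limits how surely their counts are their own. Nuclear complex I members showed no shift like that of the mitochondrially encoded ones: none of 6 passed, with log2 changes between -0.10 and 0.04.

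In fbf-2 compared with WT, none of the 12 mitochondrially encoded members passed the edgeR test in either direction, and none had an unadjusted p under 0.05; DESeq2 called none either. Of all 13401 genes tested, 5.51% rose and 10.1% fell, and 4443 had an unadjusted p under 0.05. With the replicate number as a block none of the 12 passed either, beside 15.5% and 17.5% of all genes. Without the block, the log2 changes of the 12 lay between -0.25 (nduo-5, SE 0.156) and 0.35 (ctc-2, SE 0.280). Of all genes tested, 24.7% had non-overlapping groups that were higher and 15% lower, but all 12 groups overlapped. The level of nduo-3, for example, was 26.1, 22.7 and 27.5 CPM in fbf-2, within the range of 38.2, 11.6 and 25.4 CPM in WT.

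Of the nuclear members, 1 of 35 fell and none rose in fbf-2 compared with WT. An unadjusted edgeR p under 0.05 was reached by 3 of the 35, beside 4443 of all 13401 genes. DESeq2 called 1 higher, beside 9.22% of all genes. The member that fell was ucr-2.2, with 68.5, 70.6 and 72.4 CPM in fbf-2 and 78.8, 86.0 and 87.4 CPM in WT, a log2 change of -0.39 (SE 0.108, edgeR adjusted p = 0.0442). The groups did not overlap, which also held for 15% of all genes as lower and 24.7% as higher. The call was lost in 7 of 15 alternatives, among them each of the 3 that left out an fbf-2 library and those without WT replicate 2 or 3 (adjusted p up to 0.168). Same-numbered fbf-2 and WT libraries deviated together, and with the replicate number as a block 2 nuclear members passed as higher (cox-11, 0.36, and cox-19, 0.47, on the log2 scale) and 3 as lower (ucr-2.2, -0.38, ucr-2.1, -0.33, and sdha-1, -0.27), that is 5.71% and 8.57% of the 35, against 15.5% and 17.5% of all genes in the same fit. Without WT replicate 1, 7 nuclear members passed as higher (cox-6A, cox-11, cox-14, cox-17, cox-19, nuo-6 and ucr-11, by 0.34 to 0.83 on the log2 scale) and 6 as lower (atp-1, atp-2, nuo-5, sdha-1, ucr-2.1 and ucr-2.2, from -0.45 to -0.32), and of all genes 18.4% passed as higher and 18.1% as lower. Sperm markers summed to 112 to 177 CPM in fbf-2 and 226 to 338 CPM in WT (20 of 28 tested lower), intestine markers to 2802 to 2960 CPM in fbf-2 and 3812 to 4516 CPM in WT (5 of 10 lower), hypodermis markers to 9803 to 10103 CPM in fbf-2 and 10653 to 13729.8 CPM in WT (3 of 10 lower) and muscle markers to 4807 to 5822 CPM in fbf-2 and 5082 to 7497 CPM in WT (1 of 10 lower). Germline markers summed to 3081 to 3318 CPM in fbf-2 and 3023 to 3675 CPM in WT (2 of 10 lower). Oocyte markers summed to 9117 to 9420 CPM in fbf-2 and 8005 to 9417 CPM in WT (2 of 10 lower). No neuron marker passed. No marker of any of these lists rose, and the part of these cell types in the result was not tested.

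In 3xlnc compared with WT, the complex III genes ucr-2.1 and ucr-2.2 rose. They were 2 of 35 nuclear members (5.71%), with none lower, where 9.41% of all 13861 genes tested rose and 2.11% fell. Of the 35, 27 had a positive log2 change, with a median of 0.18 against -0.02 over all genes. Groups did not overlap for 16 nuclear members, 15 of them higher in 3xlnc; of all genes tested, 23.1% had non-overlapping groups that were higher and 10.6% lower.

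The transcript of ucr-2.1 (X:12018429-12021206) stood at 177, 153 and 177 CPM in 3xlnc and 102, 114.6 and 115.2 CPM in WT. All 3xlnc values exceeded all WT values, with a log2 change of 0.56 (SE 0.115, edgeR adjusted p = 0.0152). That of ucr-2.2 stood at 117, 111 and 121 CPM in 3xlnc, against 78.8, 86.0 and 87.4 CPM in WT, a log2 change of 0.42 (SE 0.099, edgeR adjusted p = 0.0262). The ucr-2.1 call was lost without WT replicate 3 and without 3xlnc replicate 1 or 3 (adjusted p between 0.0720 and 0.0880), and the ucr-2.2 call without WT replicate 3 and without any one 3xlnc library (0.0691 to 0.131). With the replicate number as a block the ucr-2.2 call was lost as well. The complex II flavoprotein gene sdha-1, with a log2 change of 0.45 (SE 0.131), had an edgeR adjusted p of 0.0541.

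The other complexes were short of the threshold in 3xlnc compared with WT. All 7 structural complex IV members had a positive log2 change (median 0.15), as did all 5 ATP synthase members (median 0.23), while 2 of 8 complex IV assembly factors did (median -0.09, which turned to 0.00 under upper-quartile scaling); none of these 20 genes passed. Without WT replicate 1, 11 nuclear members passed as higher and none fell: ucr-2.1, ucr-2.2, ucr-11, isp-1 and cyc-1 of complex III, nuo-2 and nuo-6 of complex I, sdha-1, cox-5B, cox-6C and atp-3. In that fit 17.2% of all genes rose and 16.4% fell, against 31.4% of the nuclear members higher. Muscle markers summed to 9422 to 10298 CPM in 3xlnc and 5082 to 7497 CPM in WT (2 of 10 higher), sperm markers to 430.2 to 600.4 CPM in 3xlnc and 226 to 338 CPM in WT (25 of 28 tested higher), and intestine markers to 4932 to 5264 CPM in 3xlnc and 3812 to 4516 CPM in WT (2 of 10 higher). No marker of these 3 lists fell. Of the other lists, 1 of 10 hypodermis markers rose, 1 of 10 oocyte markers fell, and no germline or neuron marker passed. The part of these cell types in the result of 3xlnc compared with WT was not tested.

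None of the 12 mitochondrially encoded members passed in 3xlnc compared with WT, and DESeq2 called none. An unadjusted edgeR p under 0.05 was reached by 4168 of all 13861 genes and by 1 of the 12. That one was nduo-1 (MtDNA:1763-2635), with 572, 833 and 855 CPM in 3xlnc and 665, 367 and 536 CPM in WT, overlapping groups with a log2 change of 0.50 (SE 0.196, edgeR adjusted p = 0.125). Without WT replicate 1 it passed as higher (0.65, edgeR adjusted p = 0.0049), where 17.2% of all genes passed as higher and 16.4% as lower. Without WT replicate 2, the WT library with the low mitochondrial sum, nduo-6 passed as lower (-0.44, edgeR adjusted p = 0.038). In that fit 8.79% of all genes passed as higher and 1.68% as lower. With all libraries the median of the 12 was 0.01 on the log2 scale.

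The direct test of fbf-2 against 3xlnc, 2 mutants with the same molecule label that share WT as their control, gave the most calls. Of 35 nuclear members 17 were lower in fbf-2 (48.6%) and 5 higher (14.3%), against 34.2% lower and 26.6% higher over all 14045 genes tested. Groups did not overlap for 10 nuclear members lower in fbf-2 and 6 higher. Over all genes tested those shares were 32.2% and 34.3%. The median over all genes was -0.10 on the log2 scale with TMM scaling, -0.02 with RLE and -0.25 with upper-quartile scaling, and that of the nuclear members was -0.19, -0.11 and -0.35. Under RLE scaling 11 were lower and 5 higher, and under upper-quartile scaling 22 and 2. Over all genes, 30.2% were lower and 31.6% higher under RLE scaling, and 41.7% and 17.8% under upper-quartile scaling.

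Complex III held the 2 largest differences of the 47 members. In fbf-2 ucr-2.1 had 93.4, 105 and 91.5 CPM, against 177, 153 and 177 CPM in 3xlnc, a log2 change of -0.91 (SE 0.083, edgeR adjusted p = 4.37e-06). The values of ucr-2.2 were 68.5, 70.6 and 72.4 CPM in fbf-2, against 117, 111 and 121 CPM in 3xlnc, a log2 change of -0.82 (SE 0.071, edgeR adjusted p = 3.08e-06). The third gene of this subunit, ucr-2.3 (III:879860-881458), went the other way, with 161, 159.9 and 155 CPM in fbf-2 and 136, 121 and 129 CPM in 3xlnc. Its groups did not overlap, as for the 34.3% of all genes tested that were higher in fbf-2 in this way. The log2 change was 0.20 (SE 0.071, edgeR adjusted p = 0.0309), but the call was lost in 4 of 15 alternatives. These were upper-quartile scaling, where the change was 0.05 (edgeR adjusted p = 0.609), 3xlnc replicate 2 or 3 left out (0.111 and 0.100) and the replicate block (0.0563).

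As a share of all counts on the 3 core 2 genes, which needs no scaling between libraries, ucr-2.3 made up 47.7% to 49.9% for fbf-2, 30.3% to 31.7% for 3xlnc and 37.4% to 45.4% for WT, so that these 3 genotypes did not overlap. The share was 37.9% to 42.9% in fbf-1 3xlnc and 43.4% to 44.7% in fbf-1. The 3 genes are paralogs, and reads shared by similar stretches may have been split or dropped in counting. Of these, ucr-2.1 and ucr-2.2 are X-linked, and so is sdha-1, which completes the 3 X-linked members; sdha-1 was lower in fbf-2 by -0.74 (SE 0.081, edgeR adjusted p = 1.46e-05).

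**Figure D4:**
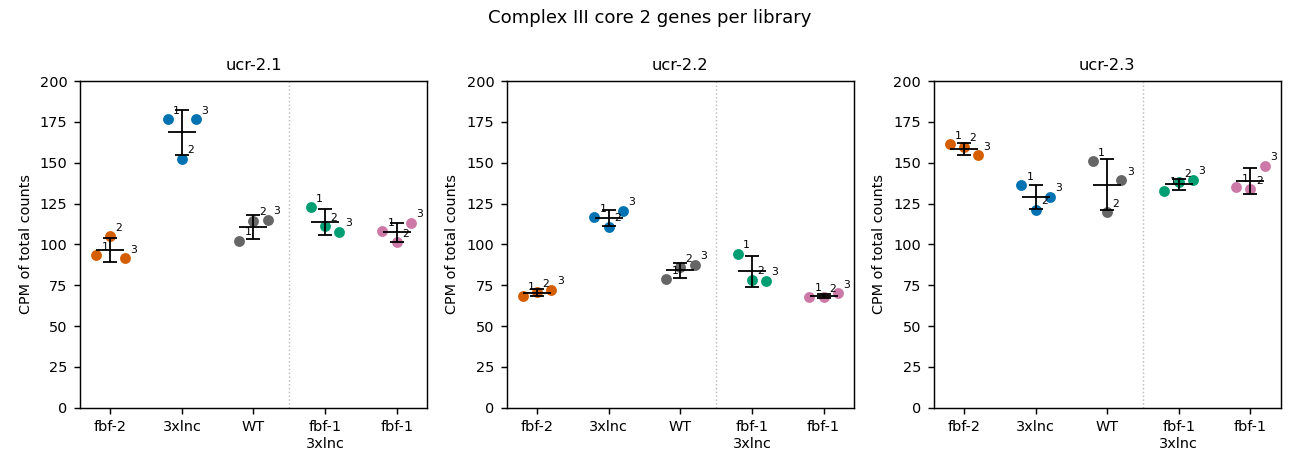
CPM of total counts of the 3 complex III core 2 genes in each library, with mean and SD; the dotted line parts the 2 molecule labels. For ucr-2.1 and ucr-2.2 the 3xlnc libraries lie highest (153 to 177 and 111 to 121 CPM), and for ucr-2.3 the fbf-2 libraries lie above the 3xlnc libraries (155 to 161 against 121 to 136 CPM).

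The other complex III members lower in fbf-2 than in 3xlnc were ucr-1, the core 1 subunit (-0.41), cyc-1, cytochrome c1 (-0.38), and isp-1, the Rieske iron-sulfur protein (-0.30 on the log2 scale). In complex I, nuo-5 and nuo-1, which carry the iron-sulfur clusters and flavin of the NADH-oxidising arm, were lower by -0.53 and -0.39, and nuo-4 by -0.16. Of the ATP synthase, atp-1 had 1938, 2149.5 and 2057 CPM in fbf-2, against 2646, 2761 and 2831 CPM in 3xlnc, a log2 change of -0.52 (SE 0.085, edgeR adjusted p = 0.00022). The beta subunit gene atp-2 differed by -0.52 (SE 0.087), atp-3 by -0.25 and atp-5 by -0.24. Of structural complex IV genes, cox-4, cox-5A and cox-6C were lower by -0.28, -0.27 and -0.26. The calls of nuo-4, atp-3, atp-5, cox-5A, cox-6C and cox-10 were each lost in 5 or more of 15 alternatives, whereas those of ucr-2.1, ucr-2.2, sdha-1, nuo-5, nuo-1, atp-1, atp-2, ucr-1, cyc-1 and isp-1 held in all 15.

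Of 8 complex IV assembly factors, 4 were higher in fbf-2 than in 3xlnc and 1 lower, and their median log2 change was 0.29 (0.37 with RLE and 0.14 with upper-quartile scaling), against -0.16 for the 7 structural complex IV members (-0.07 and -0.31), of which 3 were lower and none higher. Over all genes, 26.6% were higher and 34.2% lower. With upper-quartile scaling 2 assembly factors were higher and 1 lower, beside 17.8% and 41.7% of all genes. With RLE scaling 4 were higher and 0 lower, beside 31.6% and 30.2%. The difference between assembly factors and structural members was not tested. The gene cox-11, which delivers copper to the catalytic subunit, had 44.5, 38.5 and 37.1 CPM in fbf-2, against 24.1, 25.3 and 24.5 CPM in 3xlnc. All fbf-2 values lay above all 3xlnc values, as for 34.3% of all genes tested, with a log2 change of 0.60 (SE 0.089, edgeR adjusted p = 0.000125). Another copper-handling factor, cox-19, had 22.3, 17.6 and 17.1 CPM in fbf-2, against 12.297, 10.5 and 12.5 CPM in 3xlnc, a log2 change of 0.59 (SE 0.126, edgeR adjusted p = 0.00153). Assembly factors cox-14 and cox-16, known from yeast, were higher by 0.34 and 0.28. Both calls were lost under upper-quartile scaling (edgeR adjusted p = 0.123 and 0.146). The factor that was lower, cox-10, which makes heme O, differed by -0.33 (SE 0.122, edgeR adjusted p = 0.0340), while cox-15, which acts after it in heme A synthesis, had a log2 change of 0.01.

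**Figure D5:**
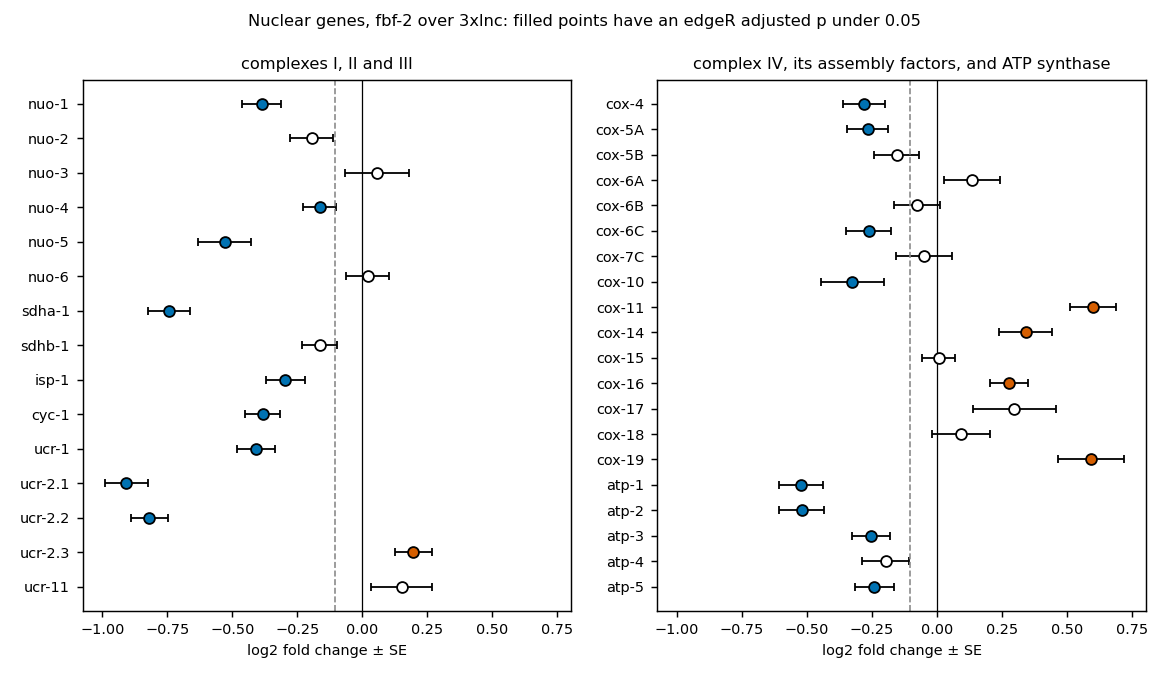
Log2 fold change of fbf-2 over 3xlnc (x axis, with SE) for the 35 nuclear members, by complex; blue points are lower and orange points higher in fbf-2 at an edgeR adjusted p under 0.05, and the dashed line is the median of all genes tested (-0.10). The values run from -0.91 for ucr-2.1 to 0.60 for cox-11.

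The remaining nuclear members did not pass in that test: nuo-2, nuo-3, nuo-6, sdhb-1, ucr-11, cox-5B, cox-6A, cox-6B, cox-7C, cox-15, cox-17, cox-18 and atp-4, with log2 changes between -0.20 and 0.30. Marker sums moved with the same pair of groups. Muscle markers summed to 4807 to 5822 CPM in fbf-2 and 9422 to 10298 CPM in 3xlnc (10 of 10 lower), sperm markers to 112 to 177 CPM in fbf-2 and 430.2 to 600.4 CPM in 3xlnc (28 of 28 tested lower), and hypodermis markers to 9803 to 10103 CPM in fbf-2 and 13560 to 13659 CPM in 3xlnc (10 of 10 lower). Intestine markers were 7 of 10 lower and 1 higher, neuron markers 8 of 10 lower and 1 higher, oocyte markers 6 of 10 higher and 2 lower, and germline markers 5 of 10 higher and 2 lower. Among the sperm markers, 2 of 35 were at 0 in fbf-2 and 1 in 3xlnc, and no marker of the other lists was at 0 in any group. The part of these cell types in the result was not tested.

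Of mitochondrially encoded members, 1 was higher and 1 lower in fbf-2 than in 3xlnc, 8.33% each, below the 26.6% higher and 34.2% lower over all genes. The level of nduo-1 was 517, 540.5 and 508 CPM in fbf-2, against 572, 833 and 855 CPM in 3xlnc, a log2 change of -0.63 (SE 0.114, edgeR adjusted p = 0.000512). That of nduo-6 was 85.8, 80.5 and 77.4 CPM in fbf-2, against 57.8, 65.9 and 66.9 CPM in 3xlnc, a log2 change of 0.25 (SE 0.069, edgeR adjusted p = 0.00732). Neither gene's groups overlapped. Of all genes tested, 34.3% had non-overlapping groups that were higher in fbf-2 and 32.2% lower. The nduo-6 call was lost under upper-quartile scaling (edgeR adjusted p = 0.21). The median of the 12 was -0.05, and 0.03 under RLE scaling, so that it carried no stable direction. Without 3xlnc replicate 1, the library with the low mitochondrial sum, nduo-4 (-0.46), nduo-5 (-0.50) and ctc-1 (-0.37) also passed as lower, in a fit where 30.9% of all genes were lower.

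Whether the effect of losing the linc genes differed between the fbf-1 background and WT was tested as an interaction, with each arm inside one molecule label. Of all 14772 genes tested, 2.54% had a positive and 3.66% a negative interaction. Among members, 1 of 35 nuclear genes passed, cox-15, with a log2 interaction of -0.39 (SE 0.105, edgeR adjusted p = 0.0402): it fell in fbf-1 3xlnc compared with fbf-1, while it had 65.6, 71.01 and 70.4 CPM in 3xlnc and 59.3, 54.7 and 64.4 CPM in WT (log2 change 0.17, edgeR adjusted p = 0.218). None of the 12 mitochondrially encoded members passed. An unadjusted edgeR p under 0.05 was reached by 3027 of all 14772 genes and by 3 of the 12. These 3 were nduo-3 at 0.85 (SE 0.348), nduo-6 at 0.81 (SE 0.253) and nduo-2 at 0.77 (SE 0.305). DESeq2 called 1 of them, nduo-6, and without WT replicate 2 all 3 passed (adjusted p between 0.0014 and 0.01). With no filter on low counts 3 of the 12 passed as higher, beside 1.45% of all genes in that fit. Over all genes, 3.95% passed as higher with DESeq2 and 2.86% without WT replicate 2. A different response of the 12 in the fbf-1 and WT backgrounds thus depended on filter, method and libraries. The filtered edgeR test with all libraries did not show it.

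The deposited tables flag 2019 of all genes (4.30%) as bound by FBF-2, and 6 of the 47 members carry the flag: ucr-2.3, cox-5B, cox-6B, cox-6C, atp-2 and atp-4. The 4.30% is over all 46904 genes, including those with too few counts to be tested, whereas all 47 members were tested. None of the 6 passed in fbf-2 compared with WT, with log2 changes between -0.28 and 0.09. Over all genes tested, 5.51% rose and 10.1% fell, so 6 genes are too few to show whether flagged members respond differently. The sources used here do not define the flag.

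Other mitochondrial genes were followed in separate lists. Both mitochondrial ribosomal RNAs, listed as MTCE.7 and MTCE.33, rose in fbf-2 compared with WT (log2 changes of 1.12, SE 0.222 and 0.230, edgeR adjusted p = 0.0129 and 0.0147), although the 12 mRNAs from the same chromosome did not pass. Their summed level was 90.0, 73.7 and 66.7 CPM in fbf-2 and 43.4, 20.7 and 34.7 CPM in WT. They lack long poly(A) tails, and what an mRNA kit retains of them is a small part. Neither passed in 3xlnc compared with WT or in fbf-1 3xlnc compared with fbf-1, and both were higher in fbf-2 than in 3xlnc (0.74 and 1.11).

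Among genes for mitochondrial ribosomal proteins in fbf-1 3xlnc compared with fbf-1, 20 of 67 (29.9%) fell and none rose, beside 8.49% and 9.43% of all genes, with a median log2 change of -0.10; mrpl-9 fell by 0.51, mrpl-38 by 0.27 and mrpl-28 by 0.25 on the log2 scale. In fbf-2 compared with WT 3 of 67 rose (4.48%, beside 5.51% of all genes), mrpl-10 (0.44), mrpl-51 (0.44) and mrpl-38 (0.32), and in 3xlnc compared with WT none passed. In fbf-2 compared with 3xlnc 48 of 67 (71.6%) were higher and none lower, while 15 of 19 genes of the TCA cycle and pyruvate dehydrogenase (78.9%) were lower and 1 higher; of all genes, 26.6% were higher and 34.2% lower.

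Chain subunits outside the naming rule included other pairs of paralogs. For the same complex I subunit, gas-1 had 89.8, 99.8 and 99.4 CPM in fbf-2, against 174, 152 and 172 CPM in 3xlnc, and nduf-2.2 had 137, 146 and 137 CPM in fbf-2, against 112, 109.6 and 112 CPM in 3xlnc. Their log2 changes were -0.89 (SE 0.083) and 0.23 (SE 0.065), both past the threshold. For subunit b of the ATP synthase, asb-2 had 276, 292 and 250.3 CPM in fbf-2, against 456, 440.2 and 484 CPM in 3xlnc, and asb-1 had 302, 280.2 and 278 CPM in fbf-2, against 220.4, 209 and 229 CPM in 3xlnc. Their log2 changes were -0.86 (SE 0.072) and 0.28 (SE 0.068), again both past the threshold. As for ucr-2.1, ucr-2.2 and ucr-2.3, each pair thus held a gene lower and a gene higher in fbf-2 than in 3xlnc; these pairs were picked after their values were seen.

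In 3xlnc compared with WT, gas-1 rose by 0.59 (edgeR adjusted p = 0.0103; 1 of 26 other complex I genes higher), asb-2 by 0.46 (0.0397; 1 of 11 other ATP synthase genes) and the TCA genes sucl-1 and idhg-2 by 0.55 and 0.37 (0.0184 and 0.0457; 2 of 19), with none lower in these lists. Over all genes tested in 3xlnc compared with WT, 9.41% rose and 2.11% fell. In fbf-1 3xlnc compared with fbf-1, asb-2 rose by 0.24 and C18E9.4 by 0.13, and nduf-2.2 and Y94H6A.8 fell by 0.19 and 0.18. In the same comparison cyc-2.2, a cytochrome c gene, rose by 1.13 and T27E9.2 by 0.14 (2 of 7 other genes of complexes II and III and cytochrome c), pdha-1 fell by 0.16 (1 of 19 TCA genes), clk-1 of ubiquinone synthesis by 0.34 (1 of 8) and timm-23 of protein import by 0.19 (1 of 11). Of 9 genes of the mitochondrial unfolded protein response, the chaperone gene hsp-6 rose by 0.20 and the protease gene lonp-1 fell by 0.14. Over all genes tested in that comparison, 9.43% rose and 8.49% fell. In fbf-2 compared with WT, cyc-2.2 fell by 1.13 and sdhd-1 rose by 0.30 (of 7 other genes of complexes II and III and cytochrome c), clk-1 rose by 0.59 (1 of 8 ubiquinone synthesis genes) and tfbm-1 by 0.39 (1 of 6 tested genes of mitochondrial DNA maintenance and transcription). None of the 26 other complex I, 11 other ATP synthase, 19 TCA, 11 import or 9 unfolded protein response genes passed there. Over all genes tested in fbf-2 compared with WT, 5.51% rose and 10.1% fell.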

How the data were processed

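Whole adult worms were profiled by RNA sequencing in 15 libraries, 3 per genotype. Per the submitters' processing notes, STAR 2.7.9a, featureCounts, Subread 2.0.1, DESeq2 1.34.0 and the build WBcel235 were used; the sources used here give no settings, annotation release, strand or treatment of multiply matching reads. The authors deposited raw counts per gene as whole numbers in 3 tables over the same 46904 genes, and an FBF-2-bound flag; 18 columns of normalised values were not used, nor were the authors' fold changes.

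Members and gene lists were chosen with earlier results of these data known. In R 4.3.3, edgeR 4.0.16 (filterByExpr, TMM, glmQLFit, glmQLFTest) was fitted to every gene in the libraries of a comparison without a replicate block, p-values were adjusted by Benjamini-Hochberg over the whole table, and a gene passed at an adjusted p under 0.05. SE is the log2 fold change over the root of F. Levels are CPM of total counts; lengths are merged exons of Ensembl release 115, WBcel235 (46817 of 46904 identifiers found). The code was tested on simulated data. Replicate libraries all differed by more than sampling noise (lowest chi-square per degree of freedom 5.83).

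The genes named are all mitochondrially encoded members, nuclear members called in at least 1 of the 3 comparisons of the design, the 3 nuclear members of highest level per kb, and up to 3 called genes per other list; further members are named to account for all of them, after their values were seen. Columns of fbf-1 3xlnc matched their group but not single samples, so their numbers only tell libraries apart. Same-numbered fbf-2 and WT libraries had correlated deviations from their group means (r = 0.70, 0.44 and 0.53), but fbf-2 replicate 3 and WT replicate 2 also did (r = 0.43). The number may therefore pair these libraries. The main fit does not use it, and the fit with the number as a block is given beside it. Alternatives were RLE and upper-quartile scaling, mitochondrial or ribosomal RNA genes left out, 2 other filters, DESeq2 1.42.0, limma-voom (limma 3.58.1), the replicate block and leaving out each library. At these depths the lowest count of a mitochondrially encoded member in a library was 240.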

Additional observations from a re-analysis of the deposited data

Results flagged for a closer look

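The complex IV assembly gene cox-15 was picked out because its response to loss of the linc genes differed between the fbf-1 and WT backgrounds by the interaction test itself. Its log2 interaction was -0.39 (SE 0.105, edgeR adjusted p = 0.0402). It was 1 of 35 nuclear members (2.86%), beside 3.66% of all genes with a negative interaction. The level was 57.2, 56.5 and 59.3 CPM in fbf-1 3xlnc and 63.5, 72.8 and 68.8 CPM in fbf-1, and 65.6, 71.01 and 70.4 CPM in 3xlnc and 59.3, 54.7 and 64.4 CPM in WT. These are the values that the test used, so they add no separate support. All fbf-1 3xlnc libraries lay below the fbf-1 libraries, as for 21.2% of all genes tested in that pair. All 3xlnc libraries lay above the WT libraries, as for 23.1%. The call was lost in 9 of 20 alternatives, each leaving out a library (WT replicate 2, any 3xlnc library, any fbf-1 3xlnc library, or fbf-1 replicate 2 or 3), with adjusted p up to 0.113. The gene shares positions with T06D8.2.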

How the results depend on the processing

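No call of a member changed sign in any alternative run. The larger moves in the counts of members called, given here as higher and lower with the value reported first, were as follows. In fbf-2 compared with WT, the nuclear count higher (0) became 1 with DESeq2, 2 with the replicate block and 0 to 7 when one library was left out, and the count lower (1) became 0 with RLE scaling, 2 with upper-quartile scaling, 0 with no filter, 3 with the replicate block and 0 to 6 without one library. In 3xlnc compared with WT, the mitochondrially encoded count higher (0) became 1 with no filter and 0 to 1 without one library, the count lower (0) became 0 to 1 without one library, and the nuclear count higher (2) became 4 with upper-quartile scaling, 1 with the replicate block and 0 to 11 without one library. In fbf-1 3xlnc compared with fbf-1, the mitochondrially encoded count higher (4) became 9 with no filter and 3 to 7 without one library, and the count lower (0) became 0 to 2; the nuclear count higher (1) became 2 with DESeq2 and 0 to 2 without one library, and the count lower (1) became 0 to 1. In fbf-2 compared with 3xlnc, the mitochondrially encoded count higher (1) became 0 with upper-quartile scaling, 3 with no filter and 1 to 3 without one library, and the count lower (1) became 3, 2 and 1 to 4 in the same settings; the nuclear count higher (5) became 2 with upper-quartile scaling, and the count lower (17) became 11 with RLE scaling, 11 with DESeq2 and 10 to 19 without one library. In the interaction, the mitochondrially encoded count higher (0) became 3 with no filter, 1 with DESeq2 and 0 to 3 without one library, and the nuclear count lower (1) became 2 with no filter, 2 with 10 or more counts in every library, 3 with DESeq2 and 0 to 5 without one library. Smaller moves are left out above. Among them, the mitochondrially encoded count higher in fbf-1 3xlnc compared with fbf-1 became 3 with DESeq2 and 5 with limma-voom. The nuclear count higher in 3xlnc compared with WT became 3 with DESeq2, with no filter and with 10 or more counts in every library. The nuclear count lower in fbf-2 compared with 3xlnc became 22 with upper-quartile scaling. Shares of all genes higher and lower moved in the same fits. When a library was left out they were 1.37% to 18.4% and 3.68% to 18.1% in fbf-2 compared with WT. There they were 7.1% and 9.47% with RLE scaling, 3.35% and 12.6% with upper-quartile scaling and 5.24% and 7.6% with no filter. With DESeq2 they were 9.22% and 10.9%, and with the replicate block 15.5% and 17.5%. In 3xlnc compared with WT they were 2.56% to 17.2% and 0.241% to 16.4% without one library. They were 12.7% and 1.05% with upper-quartile scaling, 8.17% and 1.8% with no filter and 7.02% and 0.981% with the replicate block. With DESeq2 they were 9.83% and 3.94%, and with 10 or more counts in every library 8.39% and 1.56%. For fbf-1 3xlnc compared with fbf-1 they were 4.45% to 9.51% and 3.45% to 9.57% without one library, and 7.25% and 5.72% with no filter. They were 8.78% and 7.26% with DESeq2 and 8.82% and 8.31% with limma-voom. In fbf-2 compared with 3xlnc they were 22.6% to 28% and 29.5% to 31.9% without one library. They were 31.6% and 30.2% with RLE scaling, 17.8% and 41.7% with upper-quartile scaling, 18.4% and 22.2% with no filter and 30.1% and 27.4% with DESeq2. The interaction had 1.33% to 10.4% and 2.24% to 7.92% without one library. It had 1.45% and 3.2% with no filter, 2.65% and 4.35% with 10 or more counts in every library and 3.95% and 4.84% with DESeq2. On TMM effective library sizes the mean summed level moved to 9952 CPM for nuclear members in fbf-2 and to 9973 CPM for mitochondrially encoded members in fbf-1 3xlnc.

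Same-numbered libraries did not deviate together in 3xlnc and WT (r = 0.01, 0.27 and -0.26) or in fbf-2 and 3xlnc (r = -0.19, 0.00 and -0.40), so those numbers are not taken as pairs; with the replicate block the nuclear counts in fbf-2 compared with 3xlnc were 4 higher and 16 lower. No paired analysis was possible for fbf-1 3xlnc and fbf-1 because a number in the fbf-1 3xlnc column names fits one sample by its title and a different one by its library name. With the replicate block ucr-2.2 did not pass in 3xlnc compared with WT (adjusted p = 0.0546, in a range of 0.00397 to 0.131 over its 15 alternatives). The number of libraries per group limits what can be called. The cause of these movements was not tested.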
